A study of Saccharomyces cerevisiae with 24 samples.

Results

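Tandem gene pairs are neighbouring genes read from the same strand, and a same-strand run is an unbroken chain of them. They were taken from the annotation of the W303 laboratory strain of budding yeast that the authors made for mapping their reads. All gene features with a strand on chromosomes 1 to 16 were sorted by start, and neighbours on the same strand were kept if no tRNA, TKP/TY (retrotransposon), Y element, centromere or strandless gene lay between them. This gave 2497 tandem pairs of 5225 neighbouring pairs in all, formed by 5445 stranded genes of 5613 nuclear gene features.

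The study mapped, by chromatin immunoprecipitation and sequencing, FLAG-tagged Uls1, a Snf2-family chromatin remodelling protein, and HA-tagged Top2, the topoisomerase II of yeast, in 24 libraries that form 12 groups of 2. Uls1 was mapped in WT cells in YPD and after 100 µM acriflavine (ACF), a DNA intercalator. Top2 was mapped in WT and uls1Δ cells in YPD and after 250 µM ACF, in strains that carry an additional tagged TOP2 under its own promoter. ACF was given for 2 h, each condition has IP and input libraries, and replicates were pooled by the authors for their tracks. No library values were analysed here, so nothing below is a measurement of Uls1 or Top2 binding, and the values carry no replicate error.

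The DNA between tandem genes holds the terminator of the upstream gene and the promoter of the downstream gene. A divergent gap, between genes that point away from each other, holds a pair of promoters, and a convergent gap, between genes that point at each other, a pair of terminators. A transcribing polymerase leaves overwound DNA ahead of it and underwound DNA behind it, and topoisomerases I and II relax both.

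The tightest tandem gaps show how little DNA can separate a stop codon from the next start codon, and they are printed with the stop codon of the upstream gene and the start codon of the downstream gene in capitals. Each is a window of 120 bases, 5′ to 3′ on the strand of the genes, read from the S288C reference (R64), in which these gaps are as long as in W303.
YKL023C-A and URA6, chrXI:393111-393230, minus strand: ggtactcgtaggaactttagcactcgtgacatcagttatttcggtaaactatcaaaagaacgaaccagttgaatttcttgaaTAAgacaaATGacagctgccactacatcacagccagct
ATP10 and CST9, chrXII:907860-907979, plus strand: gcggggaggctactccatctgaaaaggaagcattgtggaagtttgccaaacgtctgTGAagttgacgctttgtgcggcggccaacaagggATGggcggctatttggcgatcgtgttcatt
BIO4 and BIO5, chrXIV:733274-733393, minus strand: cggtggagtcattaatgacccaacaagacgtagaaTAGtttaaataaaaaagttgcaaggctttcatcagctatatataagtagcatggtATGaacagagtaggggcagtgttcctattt
YOR302W and CPA1, chrXV:882809-882928, plus strand: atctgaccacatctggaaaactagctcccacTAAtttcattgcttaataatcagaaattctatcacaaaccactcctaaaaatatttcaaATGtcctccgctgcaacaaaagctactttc
MATALPHA2 and BUD5, chrIII:199520-199639, minus strand: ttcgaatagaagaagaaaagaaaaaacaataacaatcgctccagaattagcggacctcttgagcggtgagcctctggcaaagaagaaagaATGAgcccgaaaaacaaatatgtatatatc
In the YKL023C-A and URA6 window 5 bases lie between the codons, 31 lie between ATP10 and CST9, 52 between BIO4 and BIO5 and 56 between YOR302W and CPA1. In the MATALPHA2 and BUD5 window the codons overlap in the letters ATGA, so that the gap was -4 bp. The W303 feature named MATALPHA2 is noted as different in size from that of S288C, from which the window was read.

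The genes the study is about are themselves members of same-strand runs, and the windows before their start codons are printed for that reason. Each has 250 bases before and 50 bases from the start codon, which is in capitals, in S288C (R64).
TOP2, downstream of RHO2, chrXIV:457454-457753, plus strand: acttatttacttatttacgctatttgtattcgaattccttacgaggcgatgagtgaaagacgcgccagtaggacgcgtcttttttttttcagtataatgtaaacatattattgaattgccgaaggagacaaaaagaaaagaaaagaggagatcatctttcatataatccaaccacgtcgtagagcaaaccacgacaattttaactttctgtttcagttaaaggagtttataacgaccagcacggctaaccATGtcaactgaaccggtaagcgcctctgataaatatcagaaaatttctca
ULS1, downstream of SPR1, chrXV:692225-692524, plus strand: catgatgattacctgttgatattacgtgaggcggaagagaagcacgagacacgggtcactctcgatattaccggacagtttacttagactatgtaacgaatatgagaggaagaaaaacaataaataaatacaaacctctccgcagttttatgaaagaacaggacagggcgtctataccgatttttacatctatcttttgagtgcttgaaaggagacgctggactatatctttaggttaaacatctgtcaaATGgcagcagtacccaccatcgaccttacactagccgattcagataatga
TOP1, downstream of RPB11, chrXV:315338-315637, minus strand: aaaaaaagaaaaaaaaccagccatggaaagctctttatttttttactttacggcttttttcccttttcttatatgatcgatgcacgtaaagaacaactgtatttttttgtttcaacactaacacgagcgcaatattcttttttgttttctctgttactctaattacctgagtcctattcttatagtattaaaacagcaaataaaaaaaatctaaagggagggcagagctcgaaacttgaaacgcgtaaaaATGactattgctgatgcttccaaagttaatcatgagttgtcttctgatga
The RHO2 to TOP2 gap was 561 bp in W303 and 560 bp in S288C. The SPR1 to ULS1 gap was 442 bp and the RPB11 to TOP1 gap 425 bp, each the same in both builds. All of these gaps are longer than the window, so none of these windows reaches the upstream gene. The letters TATAAA, the core of the TATA box to which the TATA-binding protein binds, were absent from the gene's own strand in all 3 windows. They were present on the opposite strand in the TOP2 window, and the letters TTACCCG, the core of a site for the factor Reb1, were absent from both strands of all of them.

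Tandem pairs made up 47.8% of neighbouring pairs (exact binomial 95% interval 46.4 to 49.2), divergent pairs 26% (24.8 to 27.2, 1356 pairs) and convergent pairs 26.3% (25.1 to 27.5, 1372 pairs). These shares describe what the selection rule counts and were not tested. Neighbouring pairs share genes, so the intervals, which cover counting error only, treat them as more independent than they are. By chromosome the tandem share ran from 42.2% on chromosome 9 to 58% on chromosome 1, with a mean of 48.2% ± 3.81 (SD over 16 chromosomes). The strands were used about evenly, with 1280 tandem pairs on the plus and 1217 on the minus strand. Features between them removed a further 110 same-strand neighbours from the count. A tRNA lay between 54 of these, a strandless gene between 36, a TKP/TY feature between 28, a centromere between 7 and a Y element between 4, and some had more than 1 of these.

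Tandem gaps lay between those of the other orientations in length. The median tandem gap was 409 bp, with an upper quartile of 637 bp, against 546 bp (upper quartile 840) in divergent pairs and 224 bp (upper quartile 339) in convergent pairs. Chromosome medians ran from 358 through a median of 398 to 474 bp in tandem pairs (SD 30.5 over 16 chromosomes), around a median of 552 up to 667 bp in divergent pairs (SD 88.7), of which chromosome 1 had the lowest, and from 147 through 225 to 257 bp in convergent pairs (SD 33.6). The tandem and convergent chromosome medians did not overlap at all, while the tandem and divergent medians did.

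**Figure D1:**
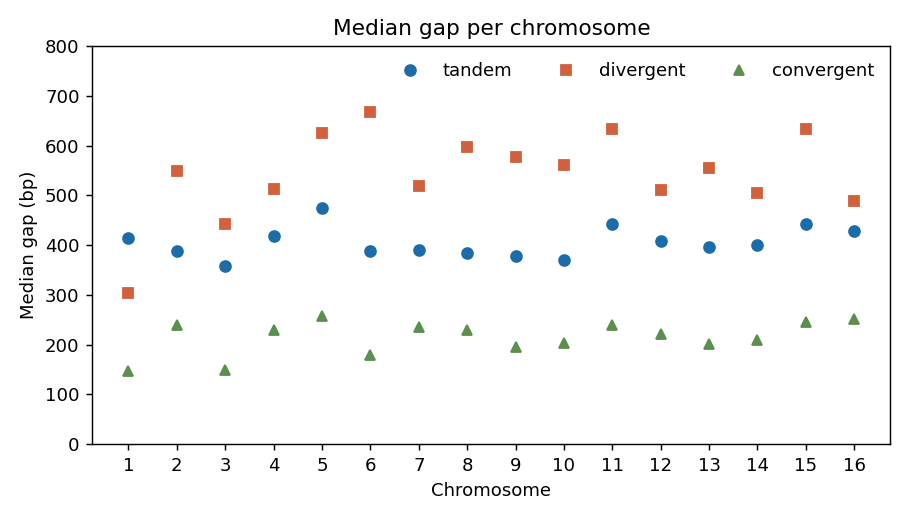
Median gap between neighbouring genes (bp) on each of 16 chromosomes, with circles for tandem, squares for divergent and triangles for convergent pairs. The tandem medians sit between 358 and 474 bp, above every convergent median, and below the divergent median on every chromosome but chromosome 1.

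The tandem median was 137 bp below the divergent median. It was lower on 15 of 16 chromosomes, with a mean difference of -137 bp ± 87.3 (SD, range -280 to 111; exact two-sided sign test over chromosomes, p = 0.000519, Benjamini-Hochberg adjusted over 2 tests 0.000519). Chromosome 1, where the tandem median of 414 bp was 111 bp above the divergent one, was the exception. The tandem median was 185 bp above the convergent median, and it was higher on 16 of 16 chromosomes, with a mean difference of 190 bp ± 28.9 (SD, range 150 to 267; the same exact test, p = 3.1e-05, adjusted 6.1e-05). Chromosomes of a single genome stand in for replicates here, so these p-values describe this annotation. On chromosomes 1 to 7 alone the difference from divergent pairs was -134 bp with an adjusted p of 0.125 (exact sign test), lower on 6 of 7 chromosomes.

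**Figure D2:**
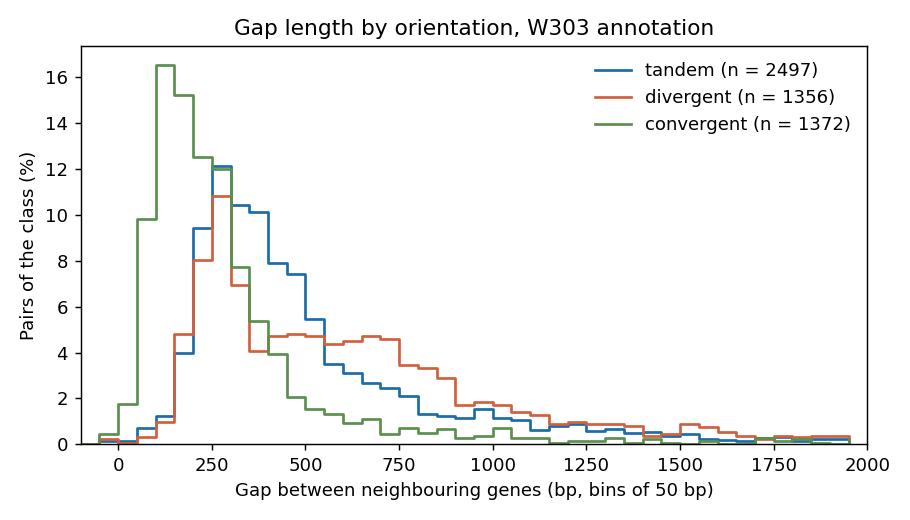
Share of pairs of each orientation (%) by gap length in bins of 50 bp, cut at 2000 bp. Convergent gaps pile up below 250 bp, tandem gaps peak at 250 to 300 bp, and divergent gaps have a broad second shoulder above 500 bp.

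Very short gaps were rare in tandem and divergent pairs. Of tandem gaps 25 (1%) were under 100 bp, against 12.2% of convergent and 0.59% of divergent gaps, and 155 (6.21%) were under 200 bp, against 44% of convergent and 6.34% of divergent gaps. At the other end 296 tandem gaps (11.9%) were over 1000 bp, against 18.2% of divergent and 4.52% of convergent gaps, and 57 were over 2000 bp. The median tandem gap was 416 bp on the plus and 404 bp on the minus strand. The plus-strand median was the longer on 8 of 16 chromosomes.

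The 10 shortest tandem gaps of at least 0 bp ran from 5 to 56 bp. The shortest, 5 bp, lay between YKL023C-A, a small gene of unknown function, and URA6, the uridylate kinase of pyrimidine synthesis. ATP10, an assembly factor of the mitochondrial ATP synthase, and CST9, a meiotic SUMO ligase also called Zip3, were 31 bp apart. PET122, a mitochondrial translation activator, and YER152C were 52 bp apart. So were BIO4, the dethiobiotin synthetase, and BIO5, the transporter of a biotin precursor, which both serve biotin synthesis. YOR302W, the leader peptide that lies in the 5′ end of the CPA1 transcript, ended 56 bp before CPA1, a carbamoyl phosphate synthetase subunit of arginine synthesis. These 5 gaps were the same in S288C to the base.

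The other short gaps were not the same in S288C or could not be matched. KAP114 to DOC1 was 54 bp in W303 and 153 bp in S288C, SOH1 to CWC23 was 55 and 247 bp, and PHS1 to MRPL49 was 56 and 245 bp. In each of these pairs the annotation notes the downstream gene as different in size from S288C. HMRA1 to MATALPHA1 and AAD6 to AAD16, both 29 bp, were not matched to a neighbouring pair in S288C. Mating-type genes have copies at more than 1 locus, so the names HMRA1 and MATALPHA1 are uncertain. Only 3 tandem pairs overlapped. The feature named MATALPHA2, after the α2 repressor of mating type, and BUD5, an activator of the bud-site GTPase, overlapped by 4 bases in both builds. The MATALPHA2 feature is 360 bp long in W303 and noted as different in size, so its name is uncertain too. YEA4 and GIM4 also overlapped by 4 bases in W303 but were 196 bp apart in S288C, and GIM4 is noted as different in size. The remaining overlap, of 35 bases, lay between features that carry the same name, LDS2.

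The 5 longest tandem gaps lay on chromosomes 1 and 9. FLO9 to YAL065C, at 12437 bp, SWH1 to FLO1, at 11778 bp, FLO1 to YAR061W, at 10548 bp, and SEO1 to PAU8, at 5067 bp, are all on chromosome 1. FLO1 and FLO9 encode flocculins, the lectins of cell-to-cell adhesion, which are long repetitive genes. In S288C 4 coding genes lie in the FLO9 to YAL065C gap and 1 in the SEO1 to PAU8 gap. The remaining one, YPS6 to GTT1 on chromosome 9, was 5984 bp in both builds with no gene between. YPS6 encodes a putative cell-surface protease and GTT1 a glutathione transferase.

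**Figure D3:**
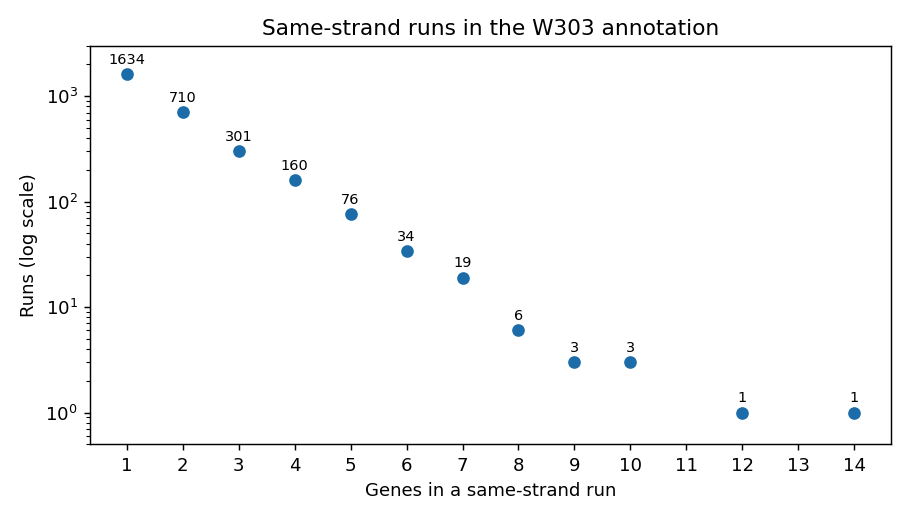
Number of same-strand runs (log scale) by the number of genes in the run, with the count above each point. Counts fall from 1634 single genes and 710 runs of 2 genes to 1 run each of 12 and 14 genes.

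Most genes had a tandem neighbour. Runs of 2 or more genes numbered 1314 and held 3811 genes, or 70% of stranded genes, and 58.7% of nuclear bases. Runs of 3 or more numbered 604 with 2391 genes (43.9%), and runs of 8 or more numbered 14 with 131 genes, 7 runs on each strand. The median span of runs of 2 or more was 4444 bp. Seen from the single gene, 2497 genes (45.9%) lay downstream of a tandem neighbour, 2712 (49.8%) shared a divergent gap, and 1183 (21.7%) had a tandem neighbour on both sides.

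Pooled by run length, the median gap was 382 bp in runs of 2 genes (710 gaps), 404 bp in runs of 3 to 4 (1082 gaps), 428 bp in runs of 5 to 7 (588 gaps) and 524 bp, with quartiles of 374 and 969 bp, in runs of 8 or more (117 gaps). By single run length the medians did not rise steadily, with 448 bp in runs of 6, 416 bp in runs of 7, 548 bp in runs of 8, 436 bp in runs of 10 and 464 bp in the run of 14. Without the 12-gene run on chromosome 1 the median of the longest class was 506 bp over 106 gaps, an alternative chosen after the values were seen. These are descriptions with no test, and a gene or tRNA missing from the annotation would lengthen a gap and a run together.

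The longest run was a chain of 14 genes on the minus strand of chromosome 2, from 369593 to 397336 of the W303 assembly (27744 bp). In the direction of transcription it holds ALG14, TAT1, BAP2, TIP1, NRG2, ECM2, YBR063C, YBR062C, TRM7, ORC2, AKL1, TSC3, UBP14 and MUM2. ALG14 serves protein glycosylation, TAT1 and BAP2 encode amino acid permeases, and TIP1 encodes a cell wall mannoprotein. NRG2 encodes a transcriptional repressor, ECM2 a splicing factor, TRM7 a tRNA methyltransferase and ORC2 a subunit of the origin recognition complex. AKL1 encodes a protein kinase, TSC3 an activator of serine palmitoyltransferase, UBP14 a ubiquitin protease and MUM2 a protein of meiosis. Its gaps ran from 240 bp, between TSC3 and UBP14 in the order of the run, to 2272 bp, between TRM7 and ORC2, with a median of 464 bp. The run ends at a tRNA on its left and at YBR071W, on the plus strand, on its right. In S288C the same stretch is also the longest run, with 14 genes over 27742 bp.

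**Figure D4:**
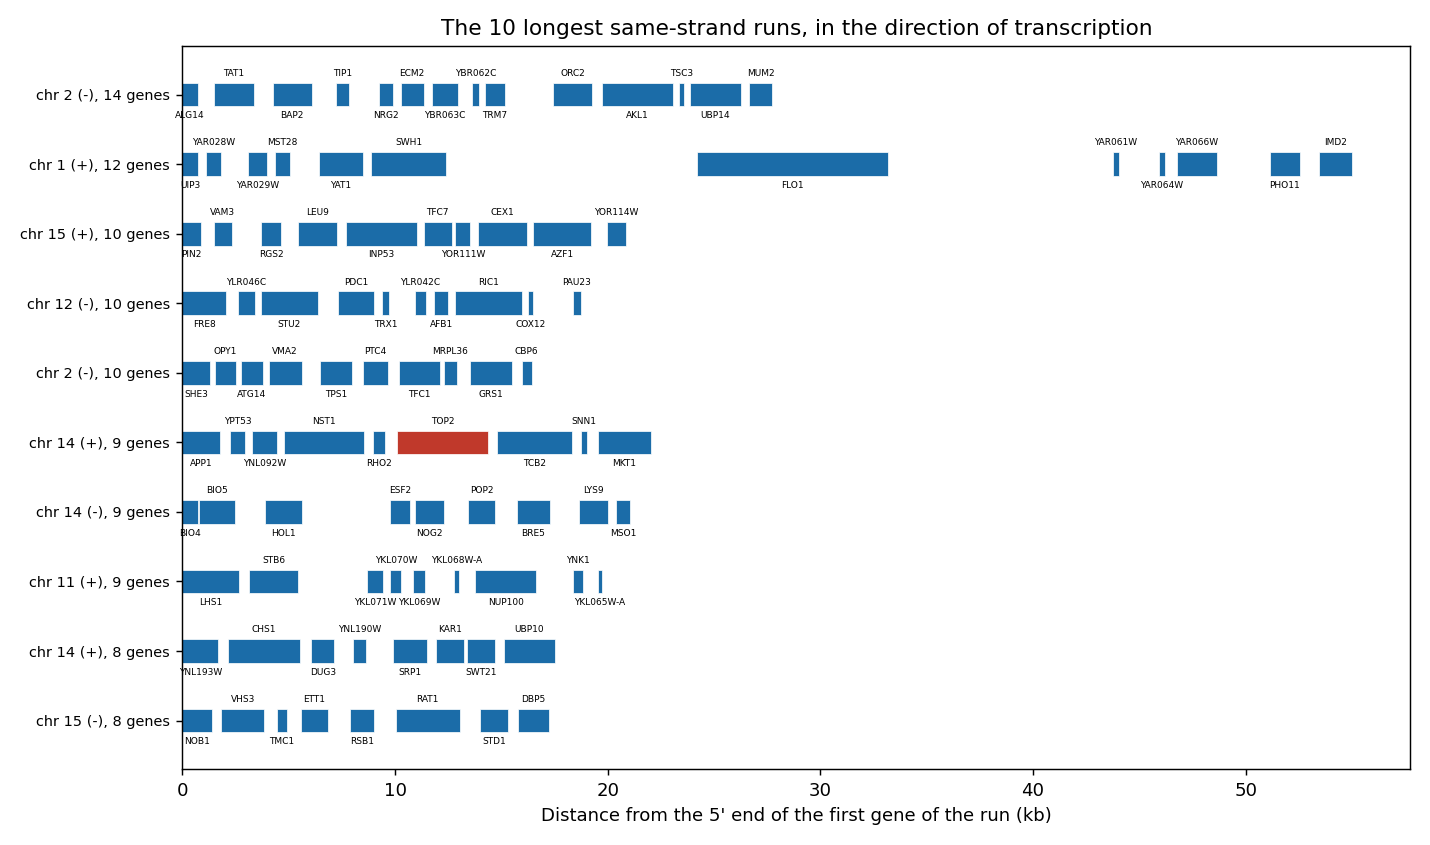
The 10 longest same-strand runs drawn to scale, each from the 5′ end of its first gene (kb), with genes as boxes in the order of transcription and TOP2 in red. The run on chromosome 1 has 2 wide spaces on either side of FLO1, of 11778 and 10548 bp, while the TOP2 run has no gap above 561 bp.

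TOP2 lay in a run of 9 genes on the plus strand of chromosome 14, from 448878 to 470891 (22014 bp), the sixth longest by gene number and the fourth by span. It holds APP1, a phosphatidate phosphatase, YPT53, a Rab GTPase, YNL092W, a methyltransferase, NST1, RHO2, TOP2, TCB2, a tether between the endoplasmic reticulum and plasma membrane, SNN1, a subunit of the endosomal BLOC-1 complex, and MKT1, a post-transcriptional regulator. Its 8 gaps were 493, 340, 334, 434, 561, 420, 386 and 488 bp in that order, so that the longest lies just upstream of TOP2. Genes filled 84.3% of its span, against 65.7% in the 14-gene run and 42% in the 12-gene run. No gene of the run is noted as different in size, and S288C has no gene or tRNA between its members. It ends at YNL095C and END3, both on the minus strand. TOP2 itself spans 458972 to 463258, and the 420 bp to TCB2 were the same in S288C.

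ULS1 closed a run of 6 genes on the plus strand of chromosome 15, from 683866 to 698089 (14224 bp). The run holds YOR186W, TUF1, the mitochondrial elongation factor Tu, MSB1, IES4, a subunit of the INO80 remodeller, SPR1, a sporulation glucanase, and ULS1. TOP1, the type I topoisomerase, was the middle gene of a run of 3 on the minus strand of chromosome 15 (311617 to 316450), between RPB11, an RNA polymerase II subunit, and CSI2. The RPB11 to TOP1 gap was 425 bp and the TOP1 to CSI2 gap 710 bp. TOP3, the remaining topoisomerase, opened a run of 3 genes on chromosome 12, with 613 bp to THI7, a thiamine transporter. In S288C 1 coding gene lies in that gap.

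The other genes that the study names lay in shorter runs. SSS1, a subunit of the translocon, and AFR1, a regulator of the pheromone response, were neighbours 777 bp apart on the minus strand of chromosome 4, in a run of 5 with SLU7, RRP1 and TVP23. The gaps on either side of them were 299 bp, from RRP1 to SSS1, and 283 bp, from AFR1 to TVP23. ATG2, of autophagy, lay 366 bp downstream of SLA2, an endocytic adaptor. ACT1, which encodes actin, lay 1024 bp downstream of YPT1, a Rab GTPase. In S288C that gap was 669 bp, and ACT1 is noted as different in size. URK1, the uridine kinase, was a run of its own.

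The second longest run by genes was the longest by span, with 12 genes over 55006 bp at the right end of chromosome 1. It holds UIP3, YAR028W, YAR029W and MST28 of the DUP240 family of membrane proteins, YAT1, a carnitine acetyltransferase, SWH1, an oxysterol-binding protein, FLO1, YAR061W, YAR064W, YAR066W, PHO11, an acid phosphatase, and IMD2, an IMP dehydrogenase. Its median gap was 1239 bp. Of its 11 pairs 7 could not be matched to S288C, and 2 S288C genes lie between the members of the others. The feature named IMD2 has the systematic name YHR216W, which belongs to chromosome 8, and IMD1 with a chromosome 1 name lies beside another PHO11 feature on W303 chromosome 8, 893 bp apart. These genes have near-identical copies on both chromosomes, so their names are uncertain.

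Runs of 10 genes numbered 3. On chromosome 15 PIN2 to YOR114W spanned 20863 bp on the plus strand and included VAM3, a vacuolar SNARE, LEU9, of leucine synthesis, TFC7, a TFIIIC subunit, and AZF1, a zinc-finger factor, with gaps of 180 to 1380 bp. S288C has 1 coding gene inside it, between PIN2 and VAM3. On chromosome 12 FRE8 to PAU23 spanned 18723 bp on the minus strand and included STU2, a microtubule polymerase, PDC1, the main pyruvate decarboxylase, and TRX1, a thioredoxin, with gaps of 253 to 1861 bp. That run ends at a strandless gene, YLR036C, and in S288C the stretch is a run of 12 genes. On chromosome 2 SHE3 to CBP6 spanned 16436 bp on the minus strand and included VMA2, of the vacuolar ATPase, TPS1, the trehalose phosphate synthase, TFC1, another TFIIIC subunit, and GRS1, the glycyl-tRNA synthetase, with gaps of 181 to 876 bp. S288C has 1 coding gene inside it as well, between VMA2 and TPS1.

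The remaining runs among the 10 longest had 8 or 9 genes, and of the 6 runs of 8 genes those with the longest span were taken. BIO4 to MSO1 on the minus strand of chromosome 14 held 9 genes over 21032 bp and the widest range of gaps of these, from 52 bp between BIO4 and BIO5 to 4119 bp between HOL1, a transporter, and ESF2, of ribosomal RNA processing. S288C has 1 tRNA in the HOL1 to ESF2 gap. LHS1 to YKL065W-A on the plus strand of chromosome 11 held 9 genes over 19746 bp, among them NUP100, a nucleoporin, and S288C has 3 tRNAs between its members. YNL193W to UBP10 on chromosome 14 held 8 genes over 17505 bp, among them CHS1, a chitin synthase, and SRP1, the importin alpha. NOB1 to DBP5 on chromosome 15 held 8 genes over 17218 bp, among them RAT1, a nuclear exonuclease of transcription termination, and DBP5, a helicase of mRNA export. By span the third longest run had only 4 genes, FLO9, YAL065C, SEO1 and PAU8, over 26553 bp at the left end of chromosome 1, of which genes filled 24.5%.

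The strandless genes set where some runs end. When they were skipped, the longest run had 16 genes, THP2 to SSP1 on the plus strand of chromosome 8 (447414 to 482529), with 2 strandless genes inside it. When the strand was read from the W or C in the systematic name instead, an alternative chosen after the values were seen, the longest run had 18 genes on the minus strand of chromosome 8 (208524 to 227860). It consists of the copper-metallothionein array, in which 7 CUP1-1 features, 1 CUP1-2 feature and 8 RSC30 features alternate, followed by CPR2 and MED6. Only 1 CUP1-1, the CUP1-2 and 1 RSC30 feature of the array have a strand in the annotation, so that most of the array is absent from the runs counted above. CUP1 binds copper, and RSC30 encodes a subunit of the RSC remodeller.

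Tandem neighbours with related proteins were few. Of 1877 tandem pairs whose S288C proteins could be aligned, 17 (0.906%, exact 95% interval 0.528 to 1.45) had at least 40% identity, against 3 of 986 divergent pairs (0.304%, 0.0628 to 0.887) and 1 of 1000 convergent pairs (0.1%, 0.00253 to 0.556). The tandem interval overlaps both of the others, and the difference was not tested. The highest identity was 99.8%, between HXT6 and HXT7, hexose transporters 3679 bp apart in a run of 5 that also holds HXT3. HXT3 and HXT6 had 75.2% identity and a gap of 1636 bp, in which S288C lists 1 coding gene. The sodium pumps ENA2 and ENA5 had 98.8% identity and a gap of 609 bp. The aldehyde dehydrogenases ALD2 and ALD3 had 91.5% and 689 bp, and the acid phosphatases PHO5 and PHO3 had 86.7% and 446 bp. FCY21 and FCY22, of the purine and cytosine permease family, had 72.6% and 418 bp, and the drug transporters QDR2 and QDR1 had 62% and 995 bp. The phospholipases PLB1 and PLB2 had 61.9% and 908 bp, and S288C lists 1 coding gene in that gap.

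In some of these pairs the names are not in the S288C order. The 2-deoxyglucose-6-phosphate phosphatases DOG2 and DOG1 (91.9% identity, 522 bp apart) and the transcriptional modulators WTM1 and WTM2 (58.4%, 986 bp) stand in the opposite order in S288C. WTM1 and WTM2 are both noted as different in size. The QDR2 to QDR1 gap was 544 bp in S288C. Of tandem pairs with annotated functions, 29 of 2479 (1.17%, 0.785 to 1.68) shared a Gene Ontology term held by at most 50 genes, against 1.63% (1.02 to 2.45) of divergent and 1.31% (0.78 to 2.07) of convergent pairs, intervals that all overlap.

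Pathway genes known to lie in clusters were found as tandem pairs in part. Runs of 2 or more hold 70% of all stranded genes, against which the counts below are to be read. All 6 allantoin genes on the list lay in runs, with 3 pairs of members: DAL4, the allantoin permease, to DAL2, the allantoicase, at 431 bp, DAL3, the ureidoglycolate lyase, to DAL7, a malate synthase, at 350 bp, and DAL7 to DCG1 at 244 bp. All 5 galactose genes lay in runs, with GAL10, the epimerase, to GAL7, the uridyltransferase, 725 bp apart, and the regulator GAL3 917 bp downstream of TRP1. ARR2, the arsenate reductase, and ARR1, the arsenic-responsive factor, were 246 bp apart. Of 12 stranded hexose transporter genes 9 lay in runs, and the 5 that were downstream of a tandem gene had a median gap of 1761 bp to it, against 409 bp over all tandem pairs. Only 2 of the 7 vitamin B6 features (SNO and SNZ genes) had a strand, and both were divergent from their upstream neighbour.

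Genes of glycolysis and of housekeeping complexes formed no tandem pair of 2 members. Each list has only 6 to 17 of 5445 stranded genes, so this absence says little about them and was not tested. Over all stranded genes, for comparison, 45.9% were downstream of a tandem gene, 49.8% shared a divergent gap, and the median tandem gap was 409 bp. The glycolysis list also includes PDC1, the pyruvate decarboxylase. Of its 17 genes 9, PDC1 among them, were downstream of a tandem gene, at a median gap of 731 bp. The shortest of these was 511 bp, from YKL151C to GPM1, the phosphoglycerate mutase, and the one at the median was FZF1 to HXK2, a hexokinase. The longest, 1302 bp, lay between YBR197C and PGI1, the phosphoglucose isomerase, and S288C has 2 coding genes in it. S288C also has 1 coding gene in the PEP8 to TDH1 gap (1233 bp) and 1 in the YAP1802 to PFK1 gap (1140 bp). Of 12 RNA polymerase II subunits 5 were downstream of a tandem gene, at a median of 745 bp, among them RPO21, the largest subunit, 813 bp after SCM3. Of 14 proteasome core subunits 5 were downstream, at a median of 374 bp, and of 6 MCM helicase subunits 2 were, at 347 bp for MCM2 and 453 bp for MCM4. Of 17 Snf2-family genes 5 were downstream, at a median of 379 bp, and 12 were divergent from their upstream neighbour. None of the 8 histone genes, which are known to stand in divergent pairs with each other, was downstream of a tandem gene.

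Most tandem pairs had the same order and orientation in S288C. Of 2497 tandem pairs 2423 (97%) were matched, which required names that occur once in W303 and the same chromosome and order in S288C. Pairs in the reverse order there, such as DOG2 and DOG1, were left out before orientation was compared. Of the matched pairs 2422 had the same orientation in S288C. In 125 matched pairs (5.16%) S288C lists a coding gene between the W303 neighbours, with a median W303 gap of 873 bp, and in 53 (2.19%) a tRNA, with a median gap of 1315 bp. All 53 were on chromosomes 8 to 16, where the W303 annotation has no tRNA feature, and made up 3.59% of the matched tandem pairs there. For 2252 tandem pairs nothing lay between in S288C, and 1860 of these gaps (82.6%) were identical in length and 2063 (91.6%) within 10 bp. The medians over these pairs were 390 bp in W303 and 384 bp in S288C. The other orientations were matched about as often, at 98.2% of divergent and 98% of convergent pairs. A coding gene lay between in S288C in 7.44% of matched divergent and 2.01% of matched convergent pairs, and a tRNA in 2.93% and 1.64%. With nothing between, 81.5% of divergent and 89.2% of convergent gaps were identical in length.

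**Figure D5:**
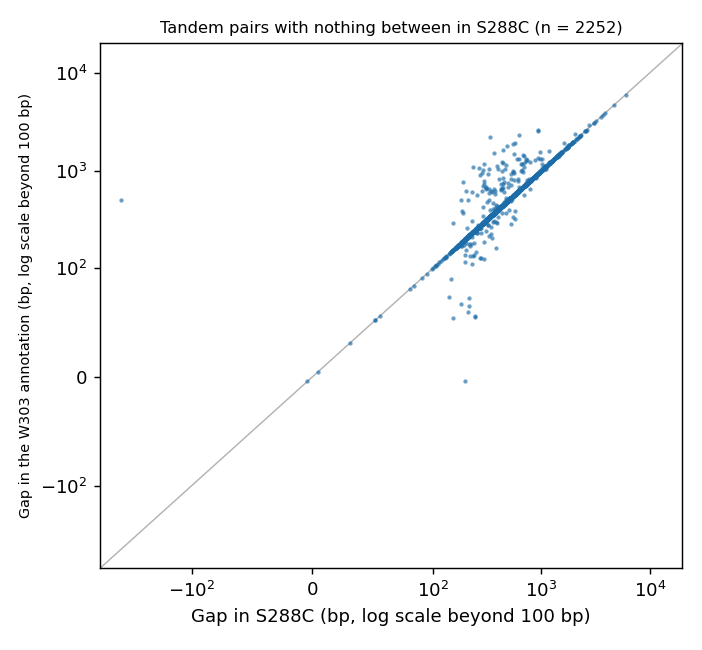
Gap of each of 2252 tandem pairs in S288C (x axis, bp) against the W303 annotation (y axis, bp), log scale beyond 100 bp, with the line of equal gaps. Most points lie on the line, and of the 126 pairs more than 100 bp away from it 99 lie above it.

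Gaps that differed were mostly longer in W303 and touched genes whose size differs. Of the 126 tandem gaps that differed by more than 100 bp, 99 were longer in W303 and 27 shorter. A gene noted as different in size is held by 92 of these 126 pairs, against 394 (15.8%) of all 2497 tandem pairs. The examples that follow were chosen after their values were seen. The gap between MHP1 and NSP1, a nucleoporin, was 2223 bp against 338 bp in S288C, with NSP1 annotated over 420 bp in W303 and 2590 bp in S288C. Between RPL7A and MPS2 it was 2582 against 928 bp, and RPL7A, a ribosomal protein gene with introns, is a feature of 9 bp in W303 and of 1662 bp in S288C. Between TEF4, an elongation factor gene with an intron, and VMA5 it was 1911 against 574 bp, and TEF4 is 228 bp in W303 and 1565 bp in S288C. With genes noted as different in size left out the median tandem gap was 403 bp. The notes are not complete, since MEI4, which is 117 bp in W303 and 1315 bp in S288C, is noted as the same. How many W303 gaps are long for such a reason was not tested.

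Matches to the ARS consensus, the short element of replication origins, were as frequent per pair in tandem as in convergent gaps. They lay in 75 tandem gaps (3%, exact interval 2.37 to 3.75), 42 convergent gaps (3.06%, 2.21 to 4.12) and 21 divergent gaps (1.55%, 0.961 to 2.36). Per kb of gap there were 0.0564 in tandem, 0.0968 in convergent and 0.0218 in divergent gaps. Base composition stood in the same order. The median AT content of S288C gaps was 66.3% in tandem, 71.4% in convergent and 63.8% in divergent pairs, and the tandem median was above the divergent and below the convergent one on 16 of 16 chromosomes. The part of base composition in the ARS counts was not tested.

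The promoters of tandem-downstream genes held TATAAA more often than those of divergent genes. The letters TATAAA, on either strand in the 250 bases before the start codon in S288C, were found in 1206 of 2455 tandem-downstream promoters (49.1%, exact interval 47.1 to 51.1), in 993 of 2682 divergent promoters (37%, 35.2 to 38.9) and in 42.6% of all 5912 promoters (41.4 to 43.9). The tandem share was higher on 16 of 16 chromosomes, with a mean of 48.7% ± 3.76 (SD, 41.3 to 53.8) against 37% ± 4.69 (28.2 to 45.8). Where the gap was at least as long as the window, so that no coding sequence of the neighbour entered it, the shares were 47.8% (45.7 to 50) and 37.9% (35.9 to 39.9), an alternative chosen after the values were seen. In tandem gaps under 200 bp, which are shorter than the window, TATAAA was found in 87 of 152 promoters (57.2%, 49 to 65.2). A tandem window can also hold terminator bases of the upstream gene, and their part was not tested. Median AT content also differed, at 66% in tandem-downstream and 64.4% in divergent promoters, and its part in the difference was not tested. A divergent window can hold bases of the neighbour's window, so that divergent promoters are not independent of each other.

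TTACCCG, on either strand, was found in 6.76% of tandem-downstream promoters (5.8 to 7.83), 8.54% of divergent promoters (7.51 to 9.66) and 7.14% of all promoters (6.49 to 7.82). Tandem and divergent intervals overlapped, and the tandem share was the higher on 6 and the lower on 10 chromosomes. With gaps at least as long as the window the shares were 6.81% (5.76 to 7.98) and 9.48% (8.31 to 10.7), intervals that do not overlap. A match to either motif is a description of the sequence and not a bound site.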

How the data were processed

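The only deposited file used is an annotation of the W303 genome, whose values are start and end positions in bases and labels. According to the supplementary methods, the authors made it from pipeline annotation of the assembly, BLAST searches for missed ORFs, and names and size notes from S288C. It has tRNA features on chromosomes 1 to 7 only. The 24 libraries entered no comparison, so no read depth applies, and 0 columns of per-sample values were set aside.

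A gap is the number of bases between neighbouring gene features. W303 and S288C (R64) genes were matched by systematic name, each in its own coordinates. S288C proteins of neighbours were aligned globally with Biopython 1.88 unless their lengths differed more than 3 times. Orientations were compared with exact sign tests over chromosomes (scipy 1.17.1, threshold adjusted p of 0.05). Run and gap code was tested on simulated data. Analyses used python 3.11.15, numpy 2.4.6 and matplotlib 3.10.9.

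Named pairs are the 10 longest runs by genes and 5 by span, the 5 longest and 10 shortest gaps, the overlaps, the 10 pairs of highest identity, pairs with listed genes and the genes the study names. Members and lists were chosen with earlier results of these data known. Examples outside this rule are marked in the text. Alternatives changed the features that end a run, the genes, chromosomes and annotation used, and the median.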

Additional observations from a re-analysis of the deposited data

How the results depend on the processing

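The tandem share stayed between 47.4% and 48.1% under 14 alternatives, within the counting interval of the main value. The number of tandem pairs was 981 on chromosomes 1 to 7 alone and 1516 on chromosomes 8 to 16 alone, and the genes in runs of 3 or more were 910 and 1481, since fewer chromosomes were counted. Under the other alternatives both counts stayed within 1.5 times the main values. The mean tandem gap was 575 bp in place of the median of 409 bp, and the other alternatives gave medians of 384 bp (S288C annotation) to 419 bp. Tandem minus divergent median gaps ran from -144 to -100 bp, and the adjusted p was past the threshold under every alternative except chromosomes 1 to 7 alone, where the difference was -134 bp (exact sign test, adjusted p = 0.125, 6 of 7 chromosomes lower). Tandem minus convergent gaps ran from 167 to 260 bp, with adjusted p-values from 3.1e-05 to 0.0312 (exact sign tests). The longest run had 10 to 18 genes, and 10 on chromosomes 8 to 16 alone, when an ARS feature also ended a run, or when genes noted as different in size were left out. Of these 16 alternatives 3 were added after seeing the data, beside those marked so for run gaps and promoters in the report: strands read from names, Unknown features that end a run, and pairs with no S288C feature between them. The last gave 2252 tandem pairs with a median gap of 390 bp. Genes without a strand, missing tRNA features and shortened ORFs limit the gaps and runs. No paired analysis was possible because no library values were analysed, and the results come from positions in an annotation.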

Other observations

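In 3 of 5445 stranded genes the strand is opposite to the letter of the systematic name. YFR035C on chromosome 6 and ARK1, a kinase of the actin cytoskeleton, on chromosome 14 are listed on the plus strand, and SDC25, a Ras exchange factor, on chromosome 12 on the minus strand. The other 5442 match. YMR147W to OSW5 on chromosome 13 was the one tandem pair with nothing between in S288C that overlaps there, by a gap of -447 bp, and is apart in W303, by 495 bp. YMR147W is 672 bp long in W303 and 1614 bp in S288C.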
